A study of Mus musculus with 401 samples.

Results

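The circadian clock genes are 10 of the 43633 genes listed in the count tables of 2 sets of mice, taken by symbol and present in both: Per1, Per2, Cry1, Cry2, Clock, Arntl, Nr1d1, Nr1d2, Dbp and Bhlhe40. Their levels were followed in single mouse oocytes and in the pool of cumulus cells that surrounded each oocyte, first in calorie-restricted against ad libitum-fed mice of the same age and then across ages and hyperovulation. All mice were B6D2F1 (C57BL/6 x DBA/2) females. In the first set, Young (2 months), Middle (9 months) and Old (14 months) mice ate ad libitum, and CR mice were 9 months old with calorie restriction. The second set held ad libitum-fed mice aged 2 (2mo), 4 (4mo), 9 (9mo) or 14 (14mo) months after injection for hyperovulation, and 2-month-old mice without it (2moNoH). The first set was also collected after hyperovulation, by equine chorionic gonadotropin or a commercial agent, CARD HyperOva; which mouse received which is not given in the sources used here. CR mice were housed singly and received 1 meal a day, and the oocytes came from fully grown follicles dissected in medium with IBMX, an inhibitor of meiotic resumption.

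In the first set, 71 cumulus and 73 oocyte libraries came from 11 mouse labels (Young 2, Middle 4, Old 2, CR 3), 1 of which, Old1_2, joined 2 mice. In the second set, 128 cumulus and 127 oocyte libraries came from 30 mice (2mo 5, 4mo 8, 9mo 4, 14mo 5, 2moNoH 8). The mouse label was the replicate unless stated otherwise, so each value is for the summed libraries of 1 label, and p-values measure the spread between mice as labelled. Fits with single libraries as the unit are named as such. Each mouse of the second set carried 1 of 2 title prefixes, B1 (16 mice) or B2 (14 mice), whose meaning the labels do not give. The time of day of collection is not given in the sources used here, nor how it was spread over the groups; its part in any difference below was not tested. Median library totals ran from 854688 to 2019007 counts in cumulus cells and from 1986202 to 3578882 in oocytes, the highest of each in CR. The labelled cell types were borne out by their markers: 10 oocyte markers summed to at least 11860 CPM (counts scaled to the library total) in the oocytes of each mouse and to at most 22.8 CPM in its cumulus cells. The 10 granulosa-lineage markers summed to at least 3788 CPM in cumulus cells and at most 646 CPM in oocytes. A single complex of mouse Middle3 was left out because its oocyte library resembled cumulus cells, so Middle3 rests on 1 complex. In pools of cells, fewer cells of a type and less RNA per cell cannot be told apart.

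The mammalian clock is a transcriptional feedback loop. CLOCK and ARNTL (BMAL1) form a heterodimer that binds E-box elements (CACGTG and variants) and drives the Per, Cry, Nr1d and Dbp genes; PER and CRY proteins return to inhibit the heterodimer, and NR1D1 and NR1D2 (REV-ERBs) repress Arntl through ROR elements (AGGTCA). DBP activates genes through D-boxes, and BHLHE40 (DEC1) represses E-box genes. In granulosa and cumulus cells rhythms of clock transcripts are known, whereas the fully grown oocyte is transcriptionally quiet and holds stored maternal RNA.

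By GENCODE vM21 on GRCm38, the members lie at chr11:69095217-69109960 (Per1, plus strand), chr1:91415982-91459324 (Per2, minus), chr10:85131700-85185064 (Cry1, minus), chr2:92403646-92434043 (Cry2, minus), chr5:76209868-76304792 (Clock, minus), chr7:113207465-113314126 (Arntl, plus), chr11:98767932-98775333 (Nr1d1, minus), chr14:18204054-18239127 (Nr1d2, minus), chr7:45705088-45710203 (Dbp, plus) and chr6:108660629-108666925 (Bhlhe40, plus). All are protein-coding. The counting was not stated to use strand, so exonic bases shared with a neighbour leave a count uncertain. Nr1d1 shared 263 exonic bases (8.55% of its exons) with Thra, and Dbp shared 539 (18.0%) with Sphk2. Cry2 shared 295 bases (4.67%) with D930015M05Rik, Bhlhe40 118 (2.51%) with 0610040F04Rik and Arntl 33 with Gm45355, while the other 5 members overlapped no annotated exon of another gene. Even so, 49.32% (first set) and 47.45% (second set) of the values of Nr1d2 above 0 were not whole numbers. The share was at most 1.18% for Per1, Per2, Cry1 and Clock, and 26.4% to 57.65% for the 5 members with an overlap. The source of the fractions in Nr1d2 was not tested, so its counts are uncertain as well.

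RefSeq promoter windows, from 250 bases before to 50 after a transcription start (GRCm38.p6), were at hand for 8 members, all but Per2 and Bhlhe40. The 5 shown belong to members of pairs related positively across mice in cumulus cells with the prefix means removed (described further on), Nr1d2 only with Per1. They are Per1 (chr11:69098699-69098998, plus strand, a start inside the gene), Cry1 (chr10:85185005-85185304, minus), Cry2 (chr2:92434020-92434319, minus), Nr1d1 (chr11:98775328-98775627, minus) and Nr1d2 (chr14:18239057-18239356, minus), each written along its gene. Capitals mark CACGTG (E-box), CACGTT (noncanonical E-box) and AGGTCA (ROR element core), searched on both strands.
Per1: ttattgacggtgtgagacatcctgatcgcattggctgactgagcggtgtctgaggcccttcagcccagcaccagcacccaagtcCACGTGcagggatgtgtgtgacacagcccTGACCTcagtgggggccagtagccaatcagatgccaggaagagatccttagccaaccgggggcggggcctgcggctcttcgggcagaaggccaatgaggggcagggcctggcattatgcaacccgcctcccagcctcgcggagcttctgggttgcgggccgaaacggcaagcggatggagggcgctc
Cry1: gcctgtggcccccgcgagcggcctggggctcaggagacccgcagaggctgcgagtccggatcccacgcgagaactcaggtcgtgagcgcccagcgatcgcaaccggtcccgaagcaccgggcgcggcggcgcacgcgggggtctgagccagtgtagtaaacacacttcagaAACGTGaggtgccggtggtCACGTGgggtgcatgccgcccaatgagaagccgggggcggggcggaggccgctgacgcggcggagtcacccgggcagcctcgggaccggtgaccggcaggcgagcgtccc
Cry2: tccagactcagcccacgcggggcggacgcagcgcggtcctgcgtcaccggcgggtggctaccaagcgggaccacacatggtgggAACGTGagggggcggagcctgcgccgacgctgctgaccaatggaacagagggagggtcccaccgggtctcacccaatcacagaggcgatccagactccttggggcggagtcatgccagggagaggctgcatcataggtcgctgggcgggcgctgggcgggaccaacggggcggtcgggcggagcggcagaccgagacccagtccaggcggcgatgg
Nr1d1: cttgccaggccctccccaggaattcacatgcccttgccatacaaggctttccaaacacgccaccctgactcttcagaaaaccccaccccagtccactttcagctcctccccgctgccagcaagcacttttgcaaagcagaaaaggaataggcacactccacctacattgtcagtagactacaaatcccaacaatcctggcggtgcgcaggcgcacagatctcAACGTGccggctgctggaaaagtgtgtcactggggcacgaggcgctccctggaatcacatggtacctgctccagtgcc
Nr1d2: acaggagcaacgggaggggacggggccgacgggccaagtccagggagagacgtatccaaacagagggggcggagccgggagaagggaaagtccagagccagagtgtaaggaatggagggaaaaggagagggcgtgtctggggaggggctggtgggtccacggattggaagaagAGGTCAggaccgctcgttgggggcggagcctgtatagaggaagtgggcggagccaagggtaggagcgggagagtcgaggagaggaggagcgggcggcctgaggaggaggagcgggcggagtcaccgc

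The 8 members had 12 windows. An E-box lay 166 bases before 1 start of Per1 and 60 before that of Cry1, and 7.15% of all 32851 windows of this length held one. The other Per1 window (chr11:69099902-69100201, not shown) held none of the motifs searched. CACGTT lay 79 bases before the start of Cry1, 166 before Cry2 and 28 before Nr1d1, against 4.69% of all windows. AGGTCA was found 137 bases before the same start of Per1, 77 before Nr1d2, 119 before 1 start of Clock and 31 after 1 start of Arntl, and 16.3% of all windows held it. The D-box TTANGTAA and the cyclic AMP response element TGACGTCA, present in 2.32% and 1.79% of windows, were not found in these windows of the members. A match is a description of these letters only.

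The members fell into separate orders of abundance in the 2 cell types. Per kilobase of exon, the oocytes of 2mo mice held Cry1 at 40.9 ± 2.62 CPM (SD, n = 5 mice), Nr1d1 at 29.2 ± 1.37, Arntl at 16.4 ± 0.843 and Clock at 15.4 ± 0.728. Arntl and Clock did not differ beyond their spread. Per1 (8.80 ± 1.11) and Bhlhe40 (7.22 ± 0.467) followed at neighbouring levels, then Nr1d2 (1.67 ± 0.388), and Cry2 (0.274 ± 0.0732), Per2 (0.144 ± 0.0755) and Dbp (0.104 ± 0.0898) were near the limit of detection. In the cumulus cells of the same 5 mice the order began with Bhlhe40 (28.9 ± 11.4) and Per1 (19.2 ± 8.26), whose ranges overlapped. Cry2 (10.2 ± 2.78), Nr1d2 (9.47 ± 1.78), Cry1 (9.37 ± 2.25), Nr1d1 (8.87 ± 4.63), Clock (8.32 ± 1.15) and Per2 (5.60 ± 3.47) lay within each other's spread or close to it. Arntl (0.670 ± 0.224) and Dbp (0.483 ± 0.187) were lowest. Detection set the precision of these last genes: Dbp had no count in 40 of 127 second-set oocyte libraries and in 25 of 128 cumulus libraries, and Per2 had none in 23 of 127 oocyte libraries, whereas Clock had a median of 444 counts per oocyte library.

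Both partners of the heterodimer were higher in oocytes, and the members of the Cry and the Nr1d pair were divided between the cell types. In 2mo mice, Arntl ran from 115 to 132 CPM in oocytes and from 2.60 to 6.93 CPM in cumulus cells, with no overlap, and was 5.12 ± 0.18 (SE) higher in oocytes on the log2 scale (adjusted p = 4.04e-16). Clock, its partner, was 1.39 ± 0.12 higher in oocytes. Of the cryptochromes, Cry1 was 2.63 ± 0.15 higher in oocytes and Cry2 4.70 ± 0.22 lower (adjusted p = 4.31e-14). Of the REV-ERBs, Nr1d1 was 2.23 ± 0.25 higher and Nr1d2 2.01 ± 0.17 lower in oocytes. Per2 was 4.66 ± 0.50 lower in oocytes (adjusted p = 1.81e-06) and Per1 only 0.62 ± 0.25 lower (adjusted p = 0.0351). Dbp (−1.72 ± 0.52) and Bhlhe40 (−1.502 ± 0.20) were also lower in oocytes. All 10 members passed the test (4 higher, 6 lower in oocytes), beside 81.0% of all genes tested. In 2moNoH mice all 10 passed in the same directions, beside 83.1% of all genes, so the number of members called is close to what most genes showed. The members' median difference was −1.06 (2mo) and −1.36 (2moNoH), against −0.07 and −0.16 over all genes.

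The other clock genes, a list of 24, were divided in the same way between oocytes and cumulus cells. Of the 23 tested in 2mo mice, 10 were higher and 10 lower in oocytes, beside 81.0% of all genes called. In 2moNoH mice 9 of the 23 were higher and 10 lower, beside 83.1%. These numbers called are close to what most genes showed. Npas2, a homologue of Clock, was at 0 in the cumulus cells of every 2mo mouse and at 80.0 to 99.6 CPM in their oocytes. Per3 was 3.41 higher in oocytes on the log2 scale, Arntl2 4.61, and Csnk1e, a kinase of PER proteins, 3.50. Tef, which like Dbp binds D-boxes, was 6.11 lower in oocytes, and the output genes Pdk4 and Tsc22d3 were lower as well (−8.02 and −7.21).

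**Figure D1:**
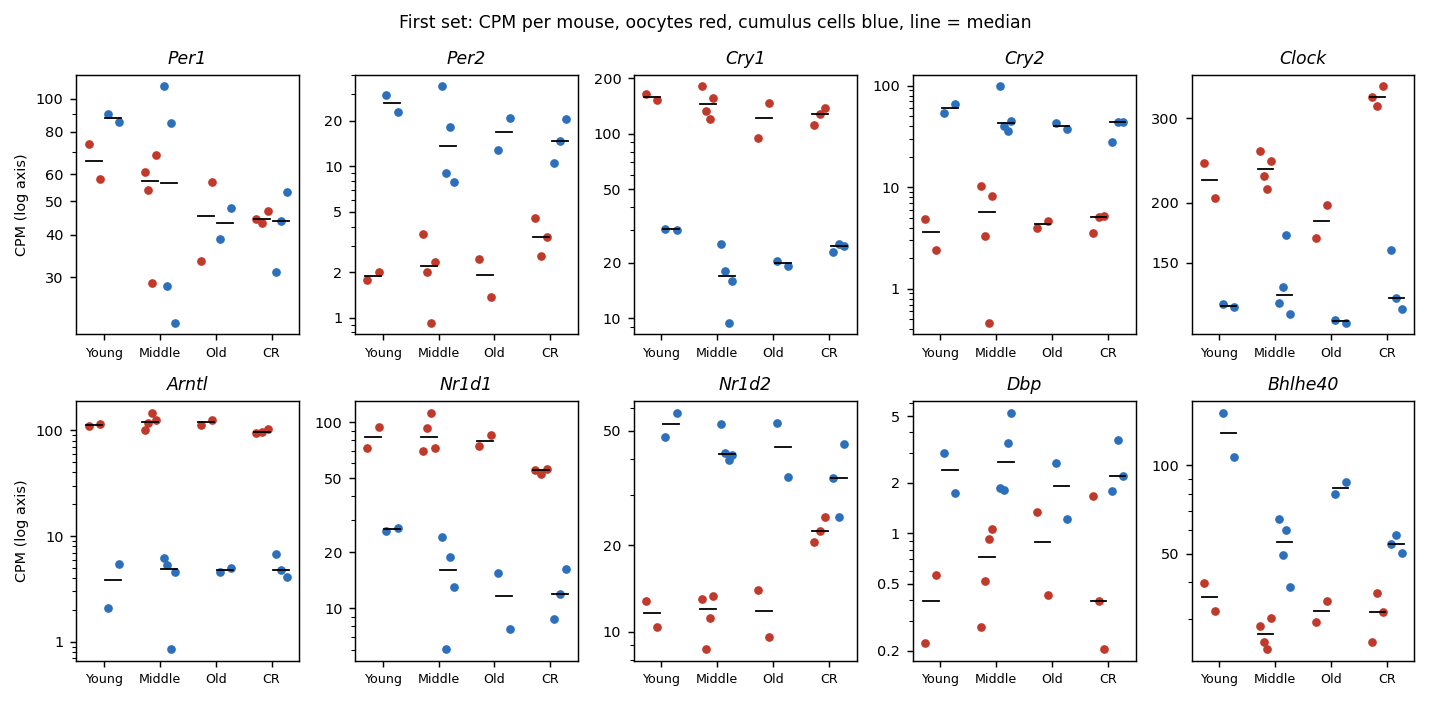
Level of each clock gene in CPM (log axis) for every mouse of the first set, with oocytes in red, cumulus cells in blue and a line at the group median. The CR oocytes sit above every ad libitum group for Clock and Nr1d2 and below every one for Nr1d1, while the cumulus points of CR overlap those of Middle in all panels.

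Calorie restriction was compared with Middle, the ad libitum mice of the same age, to ask whether the clock genes differed with the diet. In cumulus cells they were not told apart. Per1 was at 109, 28.2, 85.1 and 22.1 CPM in Middle1 to Middle4 and at 31.0, 43.7 and 53.3 CPM in CR1 to CR3, and Per2 at 33.7, 9.09, 18.1 and 7.86 against 10.5, 14.7 and 20.4 CPM. Middle1 and Middle3 were high and Middle2 and Middle4 low in both genes, so the CR mice fell inside the Middle range. Cry2 was at 98.6, 39.97, 36.1 and 44.99 CPM in Middle and 28.1, 44.4 and 44.2 CPM in CR, and Cry1 at 25.1, 18.0, 9.45 and 15.9 against 22.96, 25.1 and 24.6 CPM.

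None of the 10 members passed edgeR's quasi-likelihood test in cumulus cells (unadjusted p under 0.05 for 0, 0 called by DESeq2), beside 0.0804% of all genes tested (9.94% at the unadjusted p). The estimates, CR minus Middle on the log2 scale, were −0.46 ± 0.49 (SE) for Per1, −0.12 ± 0.44 for Per2, 0.43 ± 0.21 for Cry1 and −0.51 ± 0.30 for Cry2. They were 0.00 ± 0.14 for Clock, 0.10 ± 0.39 for Arntl, −0.25 ± 0.39 for Nr1d1 and −0.34 ± 0.21 for Nr1d2. Dbp stood at −0.21 ± 0.46 and Bhlhe40 at 0.03 ± 0.18. The standard errors were widest for Per1, Dbp, Per2, Arntl and Nr1d1, so with 4 and 3 mice only large differences in these genes could have been detected.

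In oocytes 3 members passed the test, beside 7.17% of all genes (2088 of 29104, 1267 higher and 821 lower in CR). At an unadjusted p under 0.05 it was 4 members, beside 21.2% of all genes. Nr1d2, a repressor of Arntl, was at 12.96, 8.72, 11.2 and 13.4 CPM in Middle1 to Middle4 and at 20.5, 22.4 and 25.05 CPM in CR1 to CR3. The groups did not overlap, and the log2 difference was 0.98 ± 0.19 (adjusted p = 0.00749). Clock was at 256, 227, 214 and 244 CPM in Middle and at 332, 318 and 350 CPM in CR. Here too the groups did not overlap, with a log2 difference of 0.50 ± 0.12 (adjusted p = 0.0208). Nr1d1, the other REV-ERB, moved the opposite way from Nr1d2. It was at 70.2, 93.4, 112 and 72.5 CPM in Middle and at 55.5, 52.5 and 55.7 CPM in CR, lower in every CR mouse than in any Middle mouse (−0.66 ± 0.17, adjusted p = 0.0252). How many of all genes would show CR and Middle mice without overlap was not computed. The single libraries summed in these values are not further replicates. Of 27 CR libraries, 26 lay above the highest of 14 Middle libraries for Clock and 10 for Nr1d2, beside 11 for Bhlhe40, which was not called. For Nr1d2, 27 lay above the Middle median. For Nr1d1, 16 lay below the lowest Middle library and 0 above the Middle median.

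The remaining 7 members in oocytes did not pass. Arntl was at 101, 117, 147 and 124 CPM in Middle and at 95.0, 96.7 and 104 CPM in CR, groups that overlapped in 1 mouse (−0.31 ± 0.13, adjusted p = 0.199). DESeq2 called it in addition to the 3 above. Per1 differed by −0.28 ± 0.24, Cry1 by −0.23 ± 0.17, Bhlhe40 by 0.21 ± 0.16, and the sparse Per2, Cry2 and Dbp by 0.53 ± 0.34, −0.36 ± 0.48 and −0.07 ± 0.73. The median of the 10 members was −0.15 against 0.02 over all genes.

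Of the other clock genes, 3 of 23 passed in the CR oocytes, beside 7.17% of all genes. At an unadjusted p under 0.05 it was 11, beside 21.2% of all genes. Gsk3b, a kinase that phosphorylates clock proteins among many targets, was at 86.2, 84.4, 63.6 and 96.0 CPM in Middle and at 133, 146 and 144 CPM in CR (log2 difference 0.76, adjusted p = 0.00431). Nfil3, the D-box repressor, was at 150, 181, 226 and 168 against 117, 108 and 115 CPM (−0.67, adjusted p = 0.014). Arntl2, a homologue of Arntl, was at 46.3, 57.2, 61.3 and 50.03 against 36.95, 39.1 and 38.1 CPM (−0.49, adjusted p = 0.0385). In all 3 the groups did not overlap, and the share of all genes without overlap was not computed.

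Other values moved with the CR oocytes. The median depth was 3578882 counts per CR oocyte library against 2332126 in Middle, and the median share of mitochondrial counts 0.961% against 0.666%. The endothelial markers found in oocytes (2 of 3, Pecam1 and Cdh5) summed to 83.9 to 94.6 CPM in the CR mice and 69.7 to 77.1 CPM in the Middle mice. Per mouse, the sum of 8 immediate early genes overlapped (41.8 to 127 CPM in CR, 55.8 to 270 CPM in Middle), with library medians of 51.1 and 83.9 CPM. The granulosa-lineage markers had a median sum of 448 CPM per CR mouse and 441 CPM per Middle mouse, and library medians of 183 and 241 CPM. The part of these values in the calls was not tested beyond 2 fits: all 3 members stayed past the threshold with the CR counts drawn down by the ratio of the median depths, and with the cumulus marker share as a covariate. The calls rested on few mice: without Middle2, CR1 or CR3 only Nr1d2 passed, and with the cumulus-like complex of Middle3 put back none did, with adjusted p from 0.0510 to 0.183 for the 3 genes.

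Whether the diet difference itself differed between the cell types was asked with an interaction contrast, which 0.101% of all genes passed (10.1% at the unadjusted p) and whose median over all genes was 0.20. None of the members passed it with edgeR (2 with an unadjusted p under 0.05, 1 called by DESeq2). The largest estimate was for Nr1d2, 1.59 ± 0.38 more in oocytes than in cumulus cells (adjusted p = 0.113), and the DESeq2 call was the same gene (adjusted p = 0.00278). Clock stood at 0.79 ± 0.33 (adjusted p = 0.410). The higher Nr1d2 in CR oocytes had cumulus values of 34.3, 25.03 and 45.2 CPM beside it, against 53.0, 41.8, 39.5 and 41.1 CPM in Middle.

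**Figure D2:**
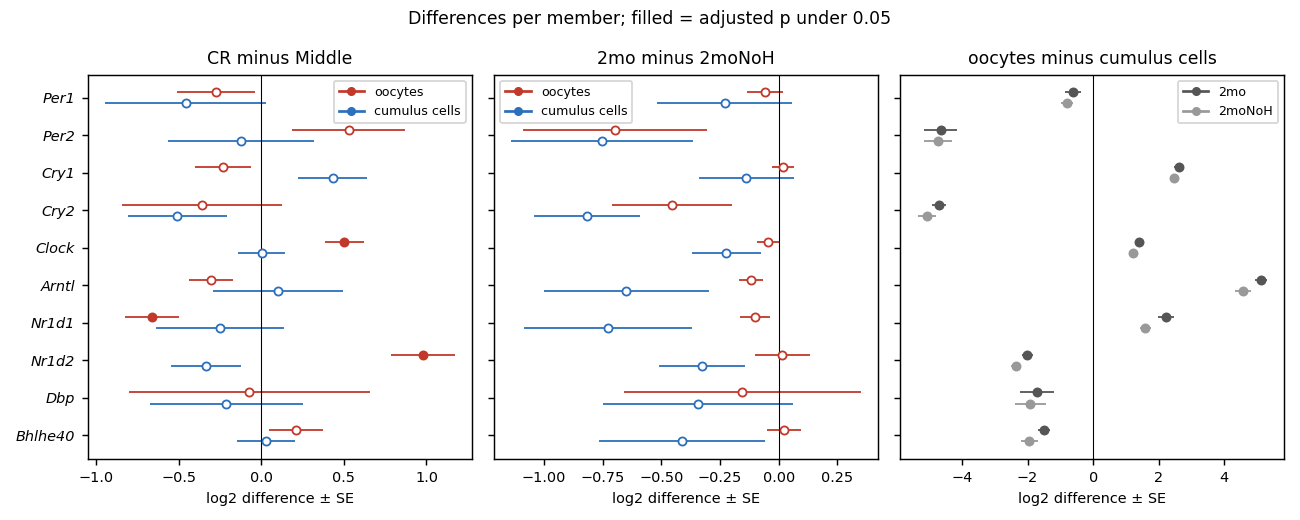
log2 difference ± SE of each clock gene for CR minus Middle, for 2mo minus 2moNoH and for oocytes minus cumulus cells, with filled symbols for an adjusted p under 0.05. Filled symbols appear for Clock, Nr1d1 and Nr1d2 in CR oocytes, none in the hyperovulation panel, and for all 10 genes between the cell types.

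Age was compared within the ad libitum mice of the first set, where Young and Old each hold 2 mouse labels. In cumulus cells no member passed the test with edgeR. The counts at an unadjusted p under 0.05 were 2 for Middle against Young (1 called by DESeq2), 3 for Old against Young (0 by DESeq2) and 1 for Old against Middle (0 by DESeq2), beside 0.00350%, 0.0210% and 0% of all genes past the adjusted threshold and 4.89%, 3.62% and 1.96% at the unadjusted p. Bhlhe40 was at 151 and 106 CPM in Young, at 65.8, 49.7, 60.1 and 38.7 CPM in Middle and at 80.0 and 87.4 CPM in Old. The Middle mice lay below all others without overlap, yet the difference from Young, −1.27 ± 0.19 on the log2 scale, had an adjusted p of 0.117, and that of Old from Middle, 0.66 ± 0.20, an adjusted p of 1. DESeq2 called Bhlhe40 in Middle against Young. Cry1 was at 30.6 and 30.2 CPM in Young and lower in every Middle (25.1, 18.0, 9.45, 15.9) and Old (20.4, 19.2) mouse, with differences of −0.76 ± 0.24 (adjusted p = 0.874) and −0.61 ± 0.27 (adjusted p = 1). Nr1d1 was at 26.01 and 27.1 CPM in Young, 24.2, 6.06, 18.9 and 13.1 in Middle and 15.5 and 7.77 in Old, a difference of −1.17 ± 0.48 between Old and Young (adjusted p = 1). The summed immediate early genes ran alongside, at 10440 and 7544 CPM in Young, 4338, 1546, 6433 and 1158 CPM in Middle and 3375 and 4182 CPM in Old; their part in these values was not tested. The members' median was −0.42 for Middle and −0.60 for Old against Young, beside 0.00 and 0.01 over all genes. These comparisons share the Young or the Middle mice.

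In the oocytes of the same mice no member passed edgeR's test for Middle against Young, Old against Young or Old against Middle (unadjusted p under 0.05 for 1, 0 and 1; 0 by DESeq2 in each), and no gene did, 0% of all in each case (3.06%, 9.17% and 4.84% at the unadjusted p). Clock was at 242 and 205 CPM in Young, 256, 227, 214 and 244 in Middle and 169 and 198 in Old, and Old minus Middle was −0.36 ± 0.14 (adjusted p = 0.847). Arntl stayed between 101 and 147 CPM in all 8 mouse labels.

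With each library taken as a replicate, which ignores that libraries share a mouse, more members passed: 2 in Middle against Young cumulus cells (Cry1 and Bhlhe40, beside 1.38% of all genes), 2 in Old against Young cumulus cells (Per1 and Cry1, 1.45%), and 2 in Old against Young oocytes (Per1 at −0.50 and Cry1 at −0.39, 15.8%). In CR against Middle oocytes the count was 4, with Per1 added at −0.36 (adjusted p = 0.0497), beside 21%, and in 2mo against 2moNoH cumulus cells 5 (Per2, Clock, Cry2, Nr1d1 and Nr1d2), beside 11.1%. These p-values are too small for a statement about mice.

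In the second set, with more mice, age was again not reflected in a call. In cumulus cells 0 of 10 members passed edgeR's test at 4, 9 and 14 months against 2mo (0, 0 and 0 with an unadjusted p under 0.05, and 0 by DESeq2 in each), beside 0%, 0.0441% and 0.0746% of all genes (5.76%, 7.38% and 7.42% at the unadjusted p). The lowest, median and highest mouse for Per1 were 55.1, 104 and 161 CPM in 2mo, 46.8, 90.5 and 109 in 4mo, 46.3, 84.2 and 118 in 9mo and 67.6, 101 and 138 in 14mo. Per2 had medians of 23.4, 21.9, 23.8 and 26.1 CPM and Bhlhe40 of 127, 125, 114 and 162 CPM across the 4 ages, with overlapping ranges. Cry1 had the smallest p of any member at 4 months, −0.40 ± 0.20 (adjusted p = 0.836).

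In oocytes 0 of 10 passed with edgeR at 4, 9 and 14 months (0, 1 and 3 with an unadjusted p under 0.05, 0 by DESeq2 in each), beside 0%, 0.0569% and 0.196% of all genes (4.83%, 6.29% and 9.46% at the unadjusted p). Nr1d2 had its lowest, median and highest mouse at 7.02, 8.15 and 12.2 CPM in 2mo, 7.76, 8.80 and 10.5 in 4mo, 11.2, 11.9 and 14.0 in 9mo and 8.78, 11.2 and 14.3 in 14mo. The 9mo mice lay above all 4mo mice but overlapped 2mo, with differences from 2mo of 0.45 ± 0.13 at 9 months (adjusted p = 0.416) and 0.30 ± 0.13 at 14 months (adjusted p = 0.435). Nr1d1 had medians of 92.0, 89.2, 85.4 and 76.7 CPM at 2, 4, 9 and 14 months, and 14mo minus 2mo was −0.22 ± 0.07 (adjusted p = 0.257). Clock (medians 205 to 216 CPM) and Arntl (124 to 131 CPM) lay in a narrow band at all 4 ages. All 3 age comparisons share the 2mo mice.

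**Figure D3:**
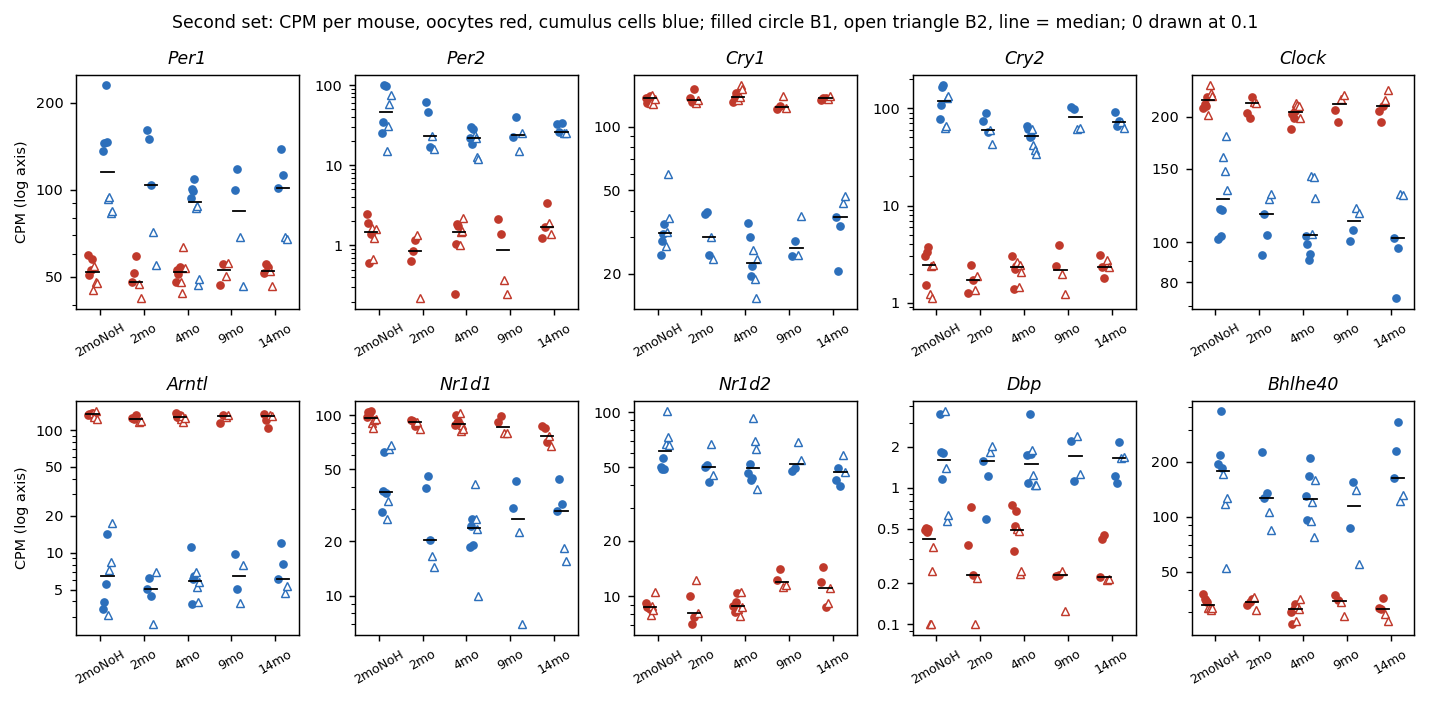
Level of each clock gene in CPM (log axis) for every mouse of the second set, with oocytes in red and cumulus cells in blue, filled circles for B1 and open triangles for B2 mice, a line at the group median, and values of 0 drawn at 0.1. The blue points spread over a much wider range than the red points for Per1, Arntl, Nr1d1 and Bhlhe40, and for cumulus Per1 the B1 mice lie at the top of each group.

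Hyperovulation was compared at 2 months, 2mo against 2moNoH. In cumulus cells every one of the 10 estimates was below 0, lower after hyperovulation, but none passed edgeR's test (1 with an unadjusted p under 0.05, 1 called by DESeq2), beside 1.65% of all genes (14.3% at the unadjusted p). Cry2 was closest. It was at 73.8, 89.2, 56.8, 60.3 and 43.0 CPM in the 5 2mo mice and at 77.0, 107, 163, 172, 62.1, 65.1, 128 and 133 CPM in the 8 2moNoH mice. The groups overlapped, and the log2 difference was −0.81 ± 0.23 (adjusted p = 0.0558); DESeq2 called it. Within the B2 mice the groups did not overlap (60.3 and 43.0 against 62.1 to 133 CPM), within B1 they did, and with the prefix as a covariate the difference was −0.86 (edgeR, adjusted p = 0.0116). Per2 ran from 15.9 to 62.2 CPM (median 23.4) in 2mo and from 15.01 to 99.5 CPM (median 46.4) in 2moNoH, a difference of −0.75 ± 0.39 (adjusted p = 0.383). Nr1d1 differed by −0.73 ± 0.36 (adjusted p = 0.357) and Arntl by −0.65 ± 0.35 (adjusted p = 0.399). Per1 (−0.23 ± 0.29), Clock (−0.22 ± 0.15), Cry1 (−0.14 ± 0.20), Nr1d2 (−0.33 ± 0.18), Dbp (−0.34 ± 0.40) and Bhlhe40 (−0.41 ± 0.35) stood nearer to 0. The members' median was −0.38 against −0.01 over all genes.

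Granulosa-lineage markers moved with this comparison. Inhba and Inhbb (activin subunits), Fshr (the FSH receptor) and Cyp19a1 (aromatase), 4 of the 10 markers, were higher after hyperovulation, by 2.04, 1.61, 0.91 and 1.72 on the log2 scale. The other 6 did not pass and ran from −0.91 to 0.81, with 3 of them below 0, and the sum of the 10 ran from 7524 to 12160 CPM per mouse in 2mo and from 3788 to 9459 CPM in 2moNoH. Atf3, an immediate early gene, was 1.09 lower (adjusted p = 0.0424). Their part in the members' values was not tested. In oocytes no member passed with edgeR (1 with an unadjusted p under 0.05, 0 by DESeq2), nor did any gene (0%, and 4.45% at the unadjusted p); the member with the smallest p was Arntl at −0.12 ± 0.05 (adjusted p = 0.981). The contrast of the 2 cell types was passed by 0.156% of genes (7.61% at the unadjusted p) and by 0 members (1 with an unadjusted p under 0.05, 0 by DESeq2).

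None of the other clock genes passed in any age or hyperovulation comparison or in CR against Middle cumulus cells, beside at most 1.65% of all genes. The closest was Bhlhe41 (DEC2) in 2mo against 2moNoH cumulus cells, 1.038 higher after hyperovulation (adjusted p = 0.0561).

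In the second set the better measured members spread more between mice of the same group in cumulus cells than in oocytes. Genes at large did so too: the common coefficient of variation between mice, over all genes tested, was 0.235 in cumulus cells and 0.080 in oocytes. Over the 5 groups, the highest mouse was 2.58-fold to 6.20-fold the lowest for Nr1d1 in cumulus cells and 1.12-fold to 1.28-fold in oocytes. The folds were 2.68 to 7.19 against 1.19 to 1.39 for Bhlhe40 and 2.05 to 2.92 against 1.19 to 1.43 for Per1. Arntl was sparse in cumulus cells, with a median of 5 counts per library against 268.5 in oocytes. Its folds were 2.502 to 5.62 against 1.15 to 1.29, and the part of low counts in them was not tested. For Clock (1.199 to 1.78 against 1.12 to 1.19) and Nr1d2 (1.43 to 2.44 against 1.25 to 1.74) the cell types lay closer. Per2 and Cry2, at a few counts per oocyte library, spread over 2.76-fold to 8.87-fold and 1.73-fold to 3.36-fold in oocytes, against 1.33-fold to 6.63-fold and 1.44-fold to 2.77-fold in cumulus cells. Among the 4 Middle mice of the first set the fold was 4.93 in cumulus cells and 2.38 in oocytes for Per1, 3.99 and 1.60 for Nr1d1, and 2.73 and 21.98 for Cry2. Over all 11 first-set labels, CR included, Clock, Nr1d2, Per2, Cry2 and Dbp spread more in oocytes.

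To ask whether complexes of 1 mouse were more alike than those of other mice of its group, the libraries were fitted with 1 mean per mouse. Here the single library was the unit, so the p-values set differences between mice against the spread between libraries of 1 mouse. In second-set cumulus cells 9 of 10 members passed, all but Dbp (adjusted p = 0.919), beside 19.2% of all genes tested. The members are better measured than most genes: among genes with a mean of at least 10 CPM, 8 of the 8 members left passed, beside 55.8%. Differences between mice held 58.7% of the within-group spread of Per1 (adjusted p = 1.90e-09), 51.6% for Per2, 49.2% for Clock and 39.3% for Cry1, against a median of 32.3% over 9700 genes of at least 10 CPM. Among mice of the same group and the same prefix, 7 members passed (Per2, Arntl, Cry1, Cry2, Nr1d1, Nr1d2 and Bhlhe40), beside 5.19% of genes. Per1, Clock and Dbp did not pass there. The share among genes of at least 10 CPM was not computed for this fit.

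In first-set cumulus cells 3 members passed, Per1 (adjusted p = 0.000202), Cry2 (0.0067) and Per2 (0.0488), beside 3.42% of genes, and beside 9.59% among genes of at least 10 CPM. The mice themselves held 45.1% of the within-group spread of Per1, against a median of 14.9%. In oocytes 0 members passed edgeR's test in the first set (4 with an unadjusted p under 0.05) and 0 in the second (2 with an unadjusted p under 0.05), beside 0.165% and 1.56% of genes.

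Part of the spread between mice followed the title prefix. With the group as a covariate, 5 members differed between B1 and B2 mice in cumulus cells, beside 20% of all genes. Per1 ran from 93.4 to 230 CPM in the 16 B1 mice and from 46.3 to 94.0 CPM in the 14 B2 mice, 0.83 ± 0.10 higher in B1 on the log2 scale (adjusted p = 9.62e-08). Clock ran from 73.3 to 120 CPM in B1 and from 105 to 180 CPM in B2 (−0.41 ± 0.06, adjusted p = 2.55e-06). Bhlhe40 (0.72 ± 0.19) and Cry2 (0.43 ± 0.12) were higher and Nr1d2 (−0.43 ± 0.09) lower in B1. In oocytes Nr1d1 (0.13) and Clock (−0.09) passed, beside 5.14% of genes. What the prefix stands for was not tested, and the relations between members below are also given with the prefix means removed.

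The design asked how Arntl, which peaks out of phase with the Per genes in tissues with a running clock, varied with the other members over the 30 mice in cumulus cells. On group-centred log2 CPM none of the 9 relations passed a permutation test with 100000 resamples (two-sided, Benjamini-Hochberg over the 9). The strongest was with Per2, and it was positive: Pearson r = 0.47 and Spearman rho = 0.43 (permutation p = 0.0390 for r, adjusted p = 0.258), 0.34 without the 2 mice farthest from the median, 0.31 in B1, 0.71 in B2 and 0.50 with the prefix means removed. Over the 11 labels of the first set the same relation was negative (r = −0.19, rho = −0.24).

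Among all 45 pairs, 4 passed both with and without the prefix means removed, all of them positive and all between genes for repressors of the loop. Most members are such genes (Per1, Per2, Cry1, Cry2, Nr1d1, Nr1d2 and Bhlhe40), so many of the 45 pairs are of this kind. The share of pairs of other genes that would pass was not computed. Of the rest, Arntl and Dbp had medians of only 5 and 1 counts per cumulus library. Per2 and Cry2 had r = 0.85 and rho = 0.83 (permutation, adjusted p = 0.00045 and 0.000225 over the 45). The value was 0.81 without the 2 farthest mice, 0.80 in B1, 0.87 in B2, 0.83 with the prefix means removed, and 0.65 over the 11 labels of the first set. Per1 and Nr1d1 had r = 0.63 and rho = 0.60 (adjusted p = 0.0081 and 0.0153), with 0.88 in B1, 0.55 in B2, 0.66 with the prefix removed and 0.69 in the first set. Cry2 and Nr1d1 had r = 0.62 and rho = 0.64 (0.62 with the prefix removed, 0.60 in the first set), and Per2 and Cry1 r = 0.48 and rho = 0.53 (0.63 and 0.24). In the plots of mouse against mouse, 2moNoH8 and 2moNoH9 hold the highest Per2 (99.5 and 97.9 CPM) together with the highest Cry2 (163 and 172 CPM).

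Other pairs changed when the prefix was removed. Per1 and Clock had r = −0.77, but −0.43 within B1, −0.27 within B2, −0.34 with the prefix removed (adjusted p = 0.376) and 0.19 in the first set. Per1 and Bhlhe40 fell from 0.71 to 0.46 (adjusted p = 0.121). Per1 and Nr1d2 turned from −0.29 to 0.66 (adjusted p = 0.0117), with 0.70 in B1 and 0.71 in B2, and Cry1 and Cry2 rose from 0.45 to 0.69 (adjusted p = 0.00495). In all, 11 of 45 pairs passed by both Pearson and Spearman with the group mean removed, 9 of them positive and 8 with the same sign in the first set, and 6 with the group and prefix means removed, all positive. All points share libraries and scaling within a mouse, and these counts have no share among pairs of other genes beside them.

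**Figure D4:**
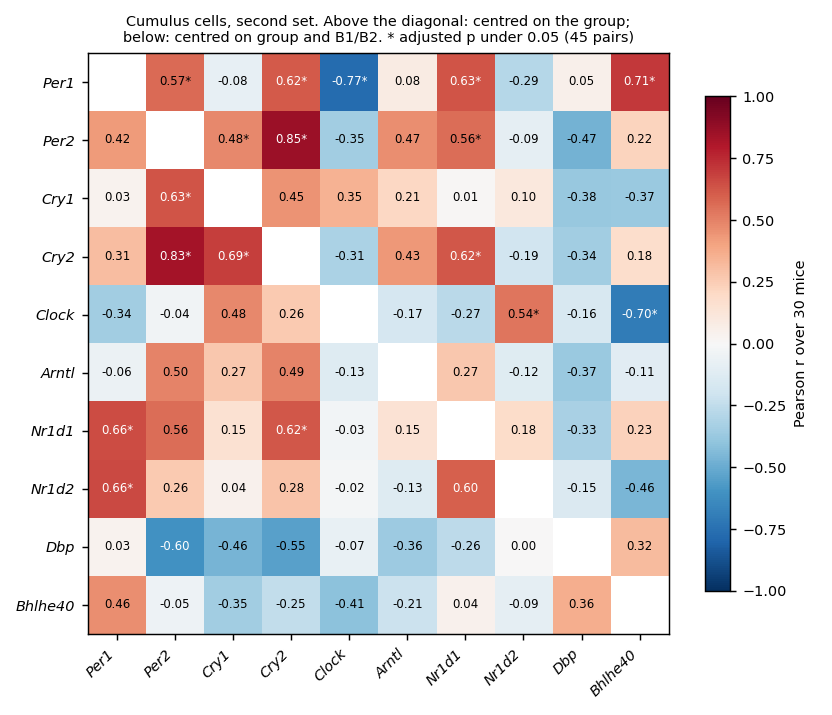
Pearson r between each pair of clock genes in cumulus cells over the 30 second-set mice, with group means removed above the diagonal and group and B1/B2 means removed below it, and an asterisk for an adjusted p under 0.05. Per2 with Cry2 is marked on both sides, while the negative Clock cells above the diagonal lose their mark below it.

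The immediate early genes, induced within minutes by stimuli that also induce Per1, were set beside each member in the same mice. Their sum rose with Bhlhe40 (r = 0.75, permutation, adjusted p = 0.0003 over 10 relations) and with Per1 (r = 0.68, adjusted p = 0.0006), and fell with Clock (r = −0.59) and Cry1 (r = −0.58). With the prefix removed, Bhlhe40 (0.65), Per1 (0.44), Cry1 (−0.65), Arntl (−0.58) and Dbp (0.61) passed, while Clock stood at −0.33 (adjusted p = 0.136). In the first set the values were 0.90 for Per1, 0.68 for Bhlhe40, 0.16 for Clock, −0.21 for Cry1, −0.62 for Arntl and 0.0003 for Dbp. The Dbp value in the second set was 0.28 within B1 and 0.83 within B2. Per2 stood at −0.06 in the second set and at 0.83 in the first. What moved these genes together was not tested, and the share of all genes related to this sum was not computed.

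**Figure D5:**
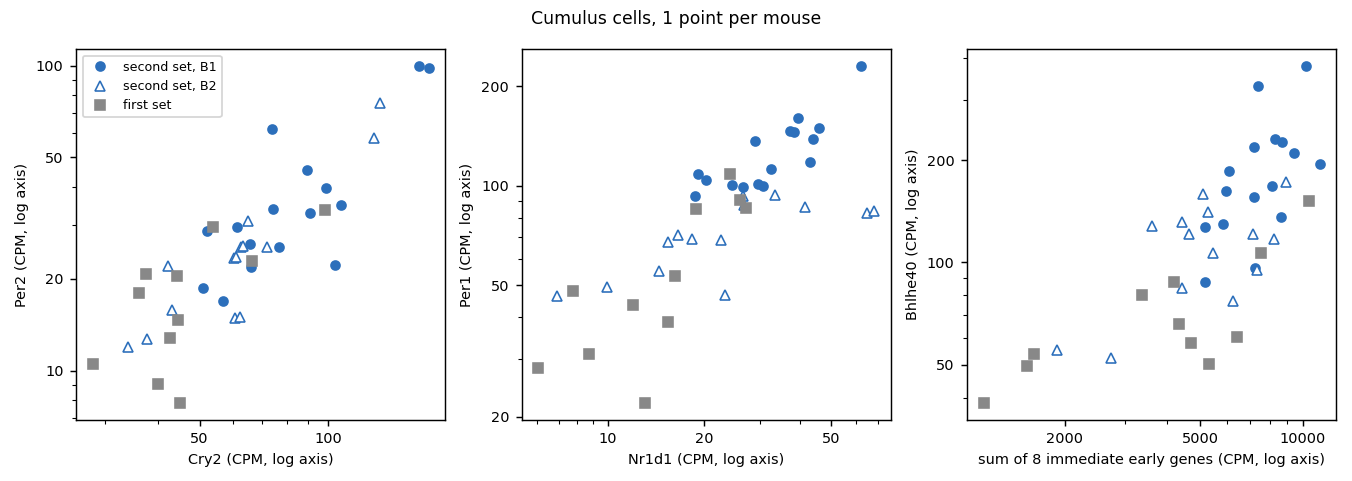
Cumulus levels per mouse in CPM (log axes) for Per2 against Cry2, Per1 against Nr1d1, and Bhlhe40 against the summed 8 immediate early genes, with filled circles for B1, open triangles for B2 and grey squares for the first set. Each panel slopes upward, and B1 mice lie above B2 mice in Per1 at a like Nr1d1 level.

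The oocyte and cumulus levels of the same gene were also compared over the 30 mice. Bhlhe40 (r = 0.59, permutation, adjusted p = 0.0074), Nr1d1 (0.55, adjusted p = 0.0235) and Clock (0.51, adjusted p = 0.0235) were positive and Cry1 negative (−0.44, adjusted p = 0.0418, but 0.130 by Spearman). In the first set Nr1d1 (−0.24), Clock (−0.47) and Cry1 (0.55) had the opposite sign, and Bhlhe40 was at 0.11. With the prefix means removed, none of the 10 passed, the smallest adjusted p being 0.0815. The share of all genes that would pass either way was not computed.

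The genes whose cumulus pattern was most like that of Arntl over the 30 group-centred mice, among 9684 genes, were Rell1 (r = 0.79), Plekhg3 (0.69), Nol7 (0.69), Sfmbt2 (0.68) and Rfk (0.67). In the first set the same genes had r of 0.78, 0.37, 0.71, 0.51 and 0.46 with Arntl. Those most like Dbp were Tmem19 (0.72), Entpd5 (0.69), Nop2 (0.68), Id1 (0.67) and B930086L07Rik (0.67), with first-set values of 0.31, −0.08, −0.46, 0.22 and −0.04. The Dbp list rests on 0.577 to 3.62 CPM per mouse.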

How the data were processed

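Single oocytes and the cumulus pool around each were profiled by RamDA-seq, a full-length total RNA method. Per the submitters' processing notes and the study's methods, the authors trimmed reads, aligned them to GRCm38 with HISAT2 2.0.5 and counted them per GENCODE vM15 gene with featureCounts 1.5.1. The deposited tables hold estimated counts: 36.8% (first set) and 35.1% (second set) of the values above 0 were not whole, with reads that map to several places split by the authors, and they were rounded here. The RPKM values deposited by the authors were used only to derive each gene's effective length for levels per kilobase. Gene positions and overlaps came from GENCODE vM21 on GRCm38, and promoters from RefSeq (GRCm38.p6).

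Counts were summed per mouse label. The complex of Middle3 whose oocyte library correlated better with cumulus than with oocyte libraries was left out of the first set. Genes detected in 5 or more libraries were fitted with edgeR 4.0.16 (R 4.3.3; TMM, quasi-likelihood test, robust spread), 1 fit per set and cell type, and p-values were adjusted by Benjamini-Hochberg over all genes tested (threshold 0.05). An SE is the estimate divided by the square root of the quasi-likelihood F. Levels are CPM after TMM. Alternatives used DESeq2 1.42.0, limma 3.58.1 (mouse as a random block), RLE scaling, other filters, each mouse left out, libraries as units, the title prefix as a covariate, the cumulus marker share as a covariate, and the CR counts drawn down to the median depth of Middle. Correlations used log2 CPM per mouse with a prior count of 2. The scripts were tested on simulated counts. Depth per library limits Dbp, Per2, Cry2 and Arntl where they are low, and intervals reflect mice only.

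The members and gene lists were chosen with earlier results of these data known. The text names all 10 members, genes of the clock list past the threshold or with the smallest p, and the 5 genes most like Arntl and Dbp. The robust spread, the filter at 10 CPM, the comparisons of prefixes, of mice within a prefix, of all pairs of members, of oocytes with cumulus cells over mice, and with the immediate early genes were chosen after seeing the data. Mouse numbers of CR and Middle did not pair the mice (correlations of deviations −0.22 to −0.03 in cumulus cells and −0.20 to 0.21 in oocytes). No columns were left without a sample.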

Additional observations from a re-analysis of the deposited data

Results flagged for a closer look

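In 9 of 120 groups of 4 or more mice (10 members, 2 cell types), 1 mouse lay apart from the rest of its group by Dixon's criterion at 95%, which chance gives in about 1 of 20. In first-set cumulus cells Middle1 was apart in Cry2, at 98.57 CPM with the next mouse at 44.99 CPM, and in Nr1d2, at 53 CPM with the next at 41.79 CPM. In second-set cumulus cells Per1 was at 230 CPM in 2moNoH8 (next 146.8), Cry1 at 59.98 CPM in 2moNoH12 (next 36.81) and Nr1d2 at 100.7 CPM in 2moNoH11 (next 73.25). Arntl was at 11.09 CPM in 4mo3 (next 6.896) and Dbp at 3.464 CPM in 4mo5 (next 1.881). In oocytes Nr1d2 was at 10.5 CPM in 2moNoH13 (next 9.153), and Dbp was lowest in 9mo24, at 0.1247 CPM or 1 count (next 0.2274).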

How the results depend on the processing

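Across the alternatives run, no difference between groups that had passed its test changed direction, whereas some relations between members did (Per1 with Nr1d2 once the prefix means were removed). Of 330 counts of members, 309 equalled the reported count or stayed within 1.5 times of it. The reported count was 0 in most comparisons of groups, and a count of 0 that stayed 0 is among the 309. The calls in CR against Middle oocytes fell from 3 members to between 1 and 3 with 1 mouse left out (1 without Middle2, CR1 or CR3) and to 0 with all deposited libraries; over 19 alternatives Nr1d2 passed in 18, Clock in 14 and Nr1d1 in 14. In Middle against Young cumulus cells the count went from 0 to 1 with no filter and with DESeq2, to 2 with libraries as units or with the mouse as a random block, and ranged from 0 to 1 with 1 mouse left out (1 without Middle1). In Old against Young the count was 1 with only the 2 groups, 2 with libraries as units and 1 with the random block in cumulus cells, and 2 with libraries as units or the random block in oocytes. In 2mo against 2moNoH cumulus cells it was 1 with filterByExpr, DESeq2 or the prefix as a covariate, 5 with libraries as units, 2 with the random block and 0 to 1 with 1 mouse left out (1 without 2mo2); Cry2 was among the members called in each. DESeq2 called 1 member, Nr1d2, in the contrast of diet by cell type. The cause of these shifts was not tested.

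Between oocytes and cumulus cells of 2mo mice 9 to 10 members passed with 1 mouse left out, Per1 being lost without 2mo1 (adjusted p = 0.147) or 2mo2 (0.145). With the mouse as a replicate block 10 members passed in 2mo and 10 in 2moNoH, and 0 in both interactions. With the mouse number as a replicate block in CR against Middle 0 members passed in cumulus cells and 2 in oocytes (Clock lost, adjusted p = 0.0750); the numbers name different animals. Over all genes, CR against Middle called 2088 in oocytes (3343 by DESeq2, 6123 with libraries as units) and 23 in cumulus cells (370, 1376, and 7801 with the random block). Young and Old hold 2 mouse labels each, so small age differences were not detectable.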
